A study of Mus musculus with 4 samples.

Results

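Imprinted genes are transcribed from only the maternal or only the paternal allele, and 34 such mouse genes, named in a list, were followed here across ATAC-seq peak lists of spermatocytes. All 34 were found in the GRCm38.p6 gene annotation, which holds 49939 genes on chromosomes 1 to 19, X and Y, 33 of them by symbol and 1, Nespas, by its synonym under the symbol Gnasas1. A peak belonged to a gene if it lay inside the gene or within 1 kb of either end. Peaks of the 4 libraries that overlapped by at least 1 bp were joined into regions, and 142 of 155908 regions belonged to the imprinted genes. The genes formed 19 clusters, 2 of them methylated on the paternal allele in the germ line (the H19 cluster with H19 and Igf2, and the Meg3 cluster with Meg3, Dlk1 and Rtl1, 5 genes in all) and 17 on the maternal allele (29 genes). Clusters lay on 9 chromosomes, 13 of the genes on chromosome 7.

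The study isolated pachytene spermatocytes, germ cells in meiotic prophase, from mouse testes and kept them for 12 h with BMH-21 at 2.5 µM, an inhibitor of RNA polymerase I, or with the DMSO vehicle (mock). Each group had 2 libraries of about 10000 cells, which the series' design text calls biological replicates. The strain, genotype and age of the mice, the purity of the isolate, and whether the replicates came from separate animals are not given in the sources used here, so spread between libraries may be technical. In this assay a transposase cuts accessible DNA, and a peak is a place where its cuts pile up. Accessibility of fewer cells and lower accessibility per cell cannot be told apart in such bulk libraries.

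Genomic imprints are DNA methylation marks laid down differently in eggs and sperm. In the male germ line they are erased in the embryo and set anew before meiosis begins, so a pachytene spermatocyte carries the paternal pattern on both homologues: the control regions of H19 and of Dlk1 and Meg3 are methylated, whereas those that eggs methylate, often the promoters of imprinted RNAs, are not. Each control region governs a cluster of neighbouring genes, through an insulator bound by CTCF at H19 and Igf2 and through long non-coding RNAs such as Kcnq1ot1 and Airn elsewhere. ATAC-seq does not read methylation itself.

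The peak lists ran to 109230 and 117905 entries for mock, against 51234 and 55459 for BMH-21. Read totals are not given in the files. The lowest local background of each list, which scales with the reads given to the peak caller, was 4.54, 4.31, 4.46 and 4.11 fragments in mock 1, mock 2, BMH-21 1 and BMH-21 2. All 9 matched pachytene markers had a peak in every library. Of 6 macrophage markers, 5 and 6 had a peak in the mock libraries and 1 in each BMH-21 library, and of 5 round spermatid markers 2 and 3 had one in mock and 0 in BMH-21. For 7 Sertoli markers the numbers were 7, 7, 5 and 6, for 5 Leydig markers 3, 4, 2 and 2, and for 5 spermatogonia markers 5, 5, 4 and 4, in the same order of libraries. Among markers with a peak in both mock libraries, 4 of 5 macrophage and 2 of 2 round spermatid markers had none in either BMH-21 library. For Sertoli, Leydig, spermatogonia and pachytene markers the counts were 1 of 7, 1 of 3, 1 of 5 and 0 of 9. Over all annotated genes the share was 17.7%, and over protein-coding genes 8.81%. The part of other cells in the results was not tested.

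Each mock library had a peak in all 34 imprinted genes, and each BMH-21 library in 28 of them (34 ± 0 against 28 ± 0, mean ± SD, n = 2 each). The same 27 genes had a peak in every library, and 5 had none in either BMH-21 library: the paternally expressed Ndn, Magel2, Mest, Slc38a4 and Rtl1. The number of peaks in the genes was 106 and 115 in mock against 58 and 65 in BMH-21, a ratio of means of 0.557. Groups did not overlap in either measure. In the exact permutation test over libraries (two-sided) both differences, of 6 genes and 49 peaks, had p = 0.33, the smallest that 2 against 2 libraries allow. For the whole lists the ratio was 0.470. With each list cut to the length of the shortest the difference in peaks was -9 and with gene ends alone -8, while the difference in genes was -5 and -6.

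A gene is called mock-only here if both mock libraries and neither BMH-21 library had a peak in it, and BMH-21-only in the reverse case. The 5 mock-only genes were 14.7% of 34 (95% exact binomial interval 4.95 to 31.1%, counting error only), against 17.7% of all annotated genes that had peaks in both mock libraries. All 5 code for proteins, and they made up 17.9% of the 28 protein-coding members (6.06 to 36.9%), against 8.81% of protein-coding genes, a share inside that interval. No imprinted gene was BMH-21-only, against 2.74% of genes with a peak in both BMH-21 libraries, and 0 of 27 allows a share of up to 12.8%. The 27 genes with a peak in all 4 libraries were 79.4% of the members, against 39.9% of all genes. Among protein-coding genes the share was 75.0% of 28 members (55.1 to 89.3%) against 67.7%, and all 28 had peaks in each mock library against 77.3%. Phlda2 and Nap1l5, the other 2, had a peak in 1 BMH-21 library only.

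**Figure D1:**
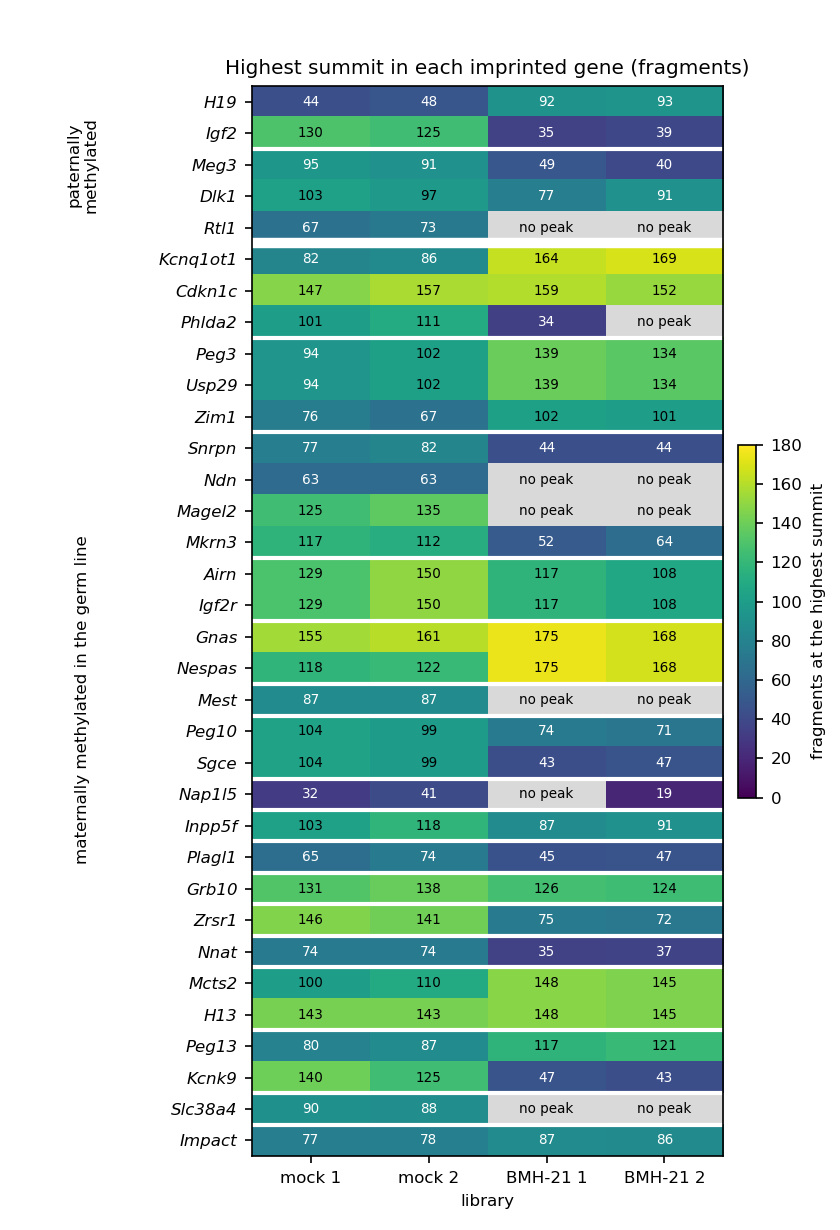
Fragments at the highest summit in each of the 34 imprinted genes (rows, grouped by cluster) in each of the 4 libraries (columns), with grey where the library had no peak. Ndn, Magel2, Mest, Slc38a4 and Rtl1 are empty in both BMH-21 libraries, H19 and Kcnq1ot1 are about as bright again under BMH-21 (ratios 2.01 and 1.98), and Igf2 is dimmer (0.290).

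By the fold of their strongest peak the mock-only genes stood between percentiles 52.7 and 92.2 of the mock lists. The median over all members was 82.8 in mock 1 and 84.2 in mock 2. Magel2, Mest and Rtl1 lay below the median in both mock libraries, and Ndn and Slc38a4 above it. The lowest member was H19, at 12.1 and 13.2. In the Snrpn cluster, whose human counterpart is deleted or silenced in Prader-Willi syndrome, 4 genes were followed. Ndn (chr7:62348277-62349928), a growth suppressor of the MAGE family expressed in neurons, is a small gene that a single mock peak covered from its start, with 63 and 63 fragments at the summit. That peak stood at percentile 91.5 of each mock list by fold, the ratio of summit pileup to local background. Magel2, a MAGE family gene that acts in a ubiquitin ligase complex, had a summit of 125 and 135 fragments, though at percentiles 52.7 and 60.6, since its local background was 27.3 and 27 fragments. Neither gene had a peak in BMH-21. Mkrn3, which lies next to them and codes for a ring finger protein that restrains puberty, had a start peak in every library, with 117 and 112 fragments in mock against 52 and 64 in BMH-21 (114 ± 3.54 and 58.0 ± 8.49, ratio 0.507). Snrpn, which codes for a spliceosome protein, kept peaks in all 4 libraries, with highest summits of 77, 82, 44 and 44 fragments. These were different peaks. The mock summits lay at chr7:60004216, near an annotated start at 60005199, where BMH-21 had 30 and 29 fragments. The BMH-21 summits lay at 60244395 and 60244360, where mock had 40 and 44. Of the 4 genes, 2 had no peak in BMH-21 and 2 had one in every library.

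**Figure D2:**
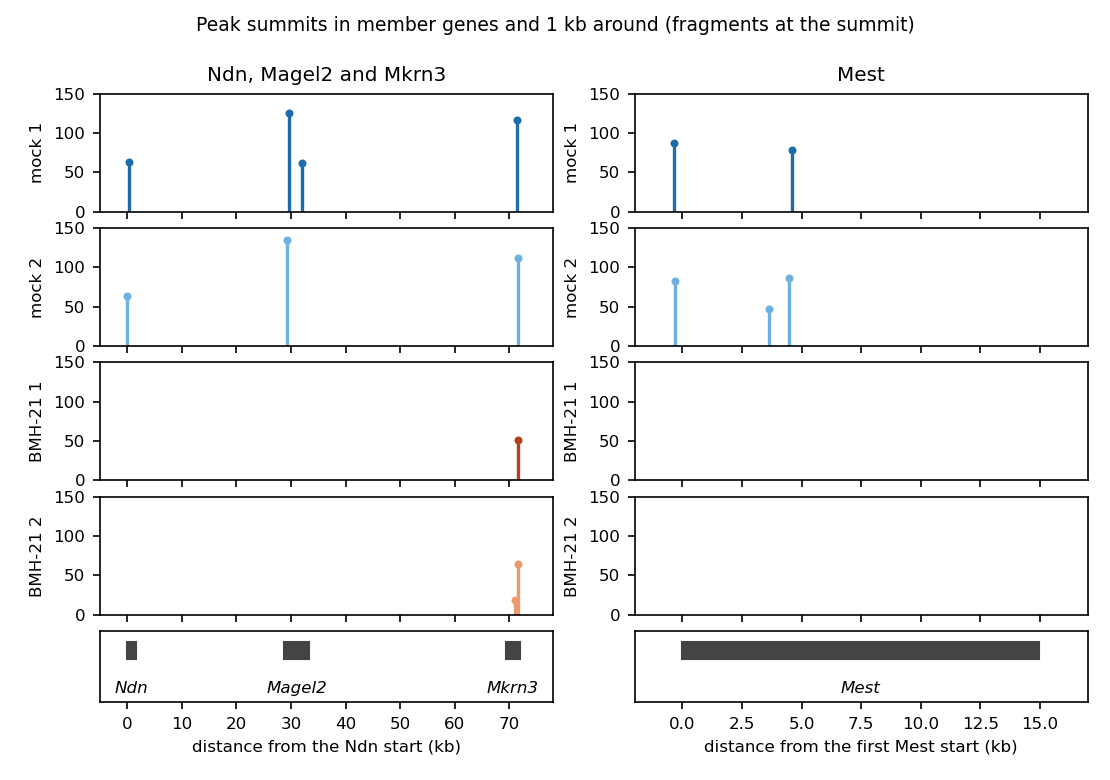
Peak summits in 3 genes of the Snrpn cluster (left) and in Mest (right), with the distance in kb on the horizontal axis and the fragments at each summit on the vertical axis, 1 panel for each library and the genes as boxes at the bottom. Summits over Ndn, Magel2 and Mest are seen in the mock panels only, whereas Mkrn3 has one in all 4.

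Mest (chr6:30733506-30748466), which codes for a hydrolase of embryonic mesoderm, had mock-only peaks at 2 separate starts. At the first start the summit stood at -336 and -305 bp with 87 and 83 fragments in mock, and at the second, 4612 and 4474 bp into the gene, it held 78 and 87 fragments. A further peak, of 47 fragments, appeared in mock 2. No peak lay in the gene or within 1 kb of it in either BMH-21 library. Slc38a4, an amino acid transporter of liver and placenta, had 1 mock peak of 90 and 88 fragments, at percentiles 92.2 and 90, whose summit lay 1232 and 1241 bp inside the gene from its annotated upstream end, and no peak in BMH-21. Rtl1, a retrotransposon-derived gene needed for the fetal capillaries of the placenta, had 5 and 7 mock peaks, the highest with 67 and 73 fragments, all away from its annotated ends, and 0 in both BMH-21 libraries. Rtl1 shares its window with Meg3, and 1 peak of mock 2 counted for both. When only the 1 kb around gene ends was counted, Rtl1 had no peak in any library, and Ndn, Magel2, Mest and Slc38a4 were the mock-only genes, 4 of 30 (13.3%) against 19.5% of all genes. At gene ends 23 members had a peak in all 4 libraries (67.6% against 33.5%), and 0 were BMH-21-only, against 3.68%. These backgrounds are over all annotated genes, non-coding ones included, while 28 of the 34 members code for proteins. Shares over protein-coding genes alone were not set beside the counts at gene ends. Like Rtl1, Snrpn and Impact had no peak at their ends, and Igf2 and Meg3, besides Phlda2 and Nap1l5, differed between libraries of a group. Over 12 settings of window, threshold, list length, overlap and libraries, the reported one among them, Ndn, Magel2, Mest and Slc38a4 were mock-only in 12 and Rtl1 in 11. The settings that leave out a library cannot change the call of a gene already mock-only. The 300 bp start windows used below are not among the 12. There Magel2 had a peak in mock 2 alone, and Slc38a4 had none in any library.

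The 2 genes with a peak in 1 BMH-21 library were weak there. Phlda2, which restrains growth of the placenta, had a peak just inside its start of 101 and 111 fragments in mock and 34 in BMH-21 1, and a second of 60 and 63 in mock alone. Nap1l5, a nucleosome assembly protein family gene without introns, had 32 and 41 fragments in mock and 19 in BMH-21 2. The summits lay 164, 210 and 260 bp inside its start. The BMH-21 2 peak reached to chr6:58906990, short of the 300 bp start window used below, which begins at 58907077. Leaving out BMH-21 1 made Phlda2 mock-only, and leaving out BMH-21 2 made Nap1l5 so.

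The sequences before the starts of Mest, Ndn and Nap1l5, whose start window was held by both mock libraries and neither BMH-21 library, are given with those of Mkrn3, Zim1 and Plagl1, whose start windows had a peak in all 4. Each line has the 250 bases upstream of a start (RefSeq, GRCm38.p6), 5′ to 3′ along the gene's strand, with every CG dinucleotide, the site of DNA methylation, in capitals.
Mest, first start, chr6:30733256-30733505, plus strand, 7 CG: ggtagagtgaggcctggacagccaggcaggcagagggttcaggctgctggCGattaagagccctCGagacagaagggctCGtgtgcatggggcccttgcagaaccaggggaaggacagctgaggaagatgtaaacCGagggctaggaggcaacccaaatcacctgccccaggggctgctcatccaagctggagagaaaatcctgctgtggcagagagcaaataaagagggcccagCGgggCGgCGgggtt
Mest, second start, chr6:30737803-30738052, plus strand, 14 CG: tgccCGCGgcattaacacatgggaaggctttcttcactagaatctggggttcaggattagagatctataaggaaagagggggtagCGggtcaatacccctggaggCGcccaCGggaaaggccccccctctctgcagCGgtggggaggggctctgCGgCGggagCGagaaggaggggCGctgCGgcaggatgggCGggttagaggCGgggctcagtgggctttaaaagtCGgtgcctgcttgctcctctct
Nap1l5, chr6:58907127-58907376, minus strand, 10 CG: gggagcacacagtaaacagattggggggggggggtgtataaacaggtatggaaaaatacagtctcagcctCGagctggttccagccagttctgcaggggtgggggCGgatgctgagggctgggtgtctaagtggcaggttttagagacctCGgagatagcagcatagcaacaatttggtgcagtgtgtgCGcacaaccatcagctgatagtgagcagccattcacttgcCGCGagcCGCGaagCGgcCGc
Ndn, chr7:62348027-62348276, plus strand, 5 CG: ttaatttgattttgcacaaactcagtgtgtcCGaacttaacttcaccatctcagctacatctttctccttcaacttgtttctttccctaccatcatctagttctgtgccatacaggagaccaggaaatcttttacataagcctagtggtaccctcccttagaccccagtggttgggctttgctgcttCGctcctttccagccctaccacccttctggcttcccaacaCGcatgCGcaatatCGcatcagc
Mkrn3, chr7:62420154-62420403, minus strand, 10 CG: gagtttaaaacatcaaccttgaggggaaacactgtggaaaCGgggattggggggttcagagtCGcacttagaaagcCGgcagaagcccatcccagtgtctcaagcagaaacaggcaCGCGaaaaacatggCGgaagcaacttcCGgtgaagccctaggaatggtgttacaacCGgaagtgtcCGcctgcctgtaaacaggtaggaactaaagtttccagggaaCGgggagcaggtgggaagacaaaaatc
Zim1, chr7:6696433-6696682, minus strand, 14 CG: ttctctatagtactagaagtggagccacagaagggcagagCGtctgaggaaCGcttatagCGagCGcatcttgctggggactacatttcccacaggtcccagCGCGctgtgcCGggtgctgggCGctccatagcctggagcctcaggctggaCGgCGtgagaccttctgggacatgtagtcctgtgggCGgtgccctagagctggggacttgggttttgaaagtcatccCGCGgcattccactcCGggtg
Plagl1, chr10:13090582-13090831, plus strand, 19 CG: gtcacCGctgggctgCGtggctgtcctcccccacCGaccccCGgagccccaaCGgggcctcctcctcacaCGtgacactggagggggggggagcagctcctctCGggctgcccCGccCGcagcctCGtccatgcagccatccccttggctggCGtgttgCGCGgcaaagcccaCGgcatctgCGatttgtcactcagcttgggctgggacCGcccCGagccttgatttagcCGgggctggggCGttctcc

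RefSeq gave 40 start windows of 300 bp (250 bases before and 50 after a start) for 25 of the 34 genes. A peak in both mock libraries was found in 24 of these windows. Of the 24, 6 were mock-only, in Mest (3, of which 2 lie 3 bp apart), Ndn, Nap1l5 and Igf2. Over all windows held by both mock libraries the share was 13.2%. None of the 16 windows with peaks in both BMH-21 libraries was BMH-21-only, against 3.67% of all windows held by both BMH-21 libraries. Those 16 of 40 had a peak in all 4 libraries, against 38.7% of all windows. Windows of the members held a median of 13.5 CG and all windows 7. Among windows with 15 or more CG, a number set with the data in view, 4 of 18 held by both mock libraries were mock-only, in Mest (2), Nap1l5 and Igf2, against 5.09% of all such windows. With fewer than 15 CG, 2 of 6 were mock-only, against 33.3%. Zim1, Plagl1, Mkrn3, Inpp5f, Grb10, Nnat, Mcts2, H13, Igf2r, Usp29 and 2 of the Gnas starts also had 15 or more CG and a peak in all 4 libraries. The letters TGCCGC (searched on both strands), the core of the motif bound by ZFP57, a zinc finger protein that keeps imprints, stood in 11 of 40 member windows and 11.6% of all, and in 8 of 19 member windows with 15 or more CG against 25.1%. Of the 6 mock-only windows 3 held them, the 2 adjoining windows of Mest and that of Nap1l5, against 12.1% of all mock-only windows. Of the 16 windows with a peak in all 4 libraries 5 did, against 22.2% of all such windows. The shares of 12.1% and 22.2% are over windows not matched for CG content. The 3 mock-only windows come from 2 genes and each has 15 or more CG, where the share over all windows was 25.1%. An enrichment of these letters at mock-only starts was not tested. The starts of Dlk1 and Meg3 and the 3 of Slc38a4 held no peak in their 300 bp in any library.

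In the H19 cluster the summit at H19 was higher and those over Igf2 were lower in BMH-21. H19 (chr7:142575530-142578146) is a non-coding RNA expressed from the maternal allele, and Igf2 (chr7:142650768-142666816), an insulin-like growth factor, is its paternally expressed neighbour. At the start of H19, read here from the minus strand as its neighbour is, the peak had 44 and 48 fragments in mock against 92 and 93 in BMH-21 (46.0 ± 2.83 and 92.5 ± 0.707, ratio 2.01). In mock it ranked at percentiles 12.1 and 13.2 by fold, and in BMH-21 at 89.9 and 90.1. Within Igf2 the highest summit went from 130 and 125 fragments to 35 and 39 (128 ± 3.54 and 37.0 ± 2.83, ratio 0.290), the lowest ratio among the 27 genes with a peak in all 4 libraries. Mock peaks numbered 6 and 8 in Igf2 and stood on a local background of up to 47.9 and 49.5 fragments, which in BMH-21 reached 8.38 and 8.62. BMH-21 had 1 and 3 peaks in Igf2, of which 1, in the second library, overlapped a mock peak, with 28 fragments. No Igf2 region was held by all 4 libraries, 5 of the 6 regions held by both mock libraries were mock-only, and 1 was BMH-21-only.

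Between H19 and Igf2, over 72.6 kb, there were 10 and 12 peaks in mock against 2 and 5 in BMH-21, the peak at the H19 start included. Of 9 regions held by both mock libraries 6 were mock-only. The insulator of the cluster lies in the first kilobases upstream of H19. Its coordinates were not used, and no peak was assigned to it. A mock peak of 62 and 62 fragments, with its summit 1451 and 1602 bp upstream of the H19 start, had no counterpart in BMH-21. From the end of that peak, 1.81 and 1.84 kb upstream, to 10.3 and 10.4 kb no peak was called in mock. In BMH-21 no peak lay between 0.415 and 32.9 kb in the first library or between 0.406 and 32.9 kb in the second. Between 1.84 and 10.3 kb upstream, therefore, no library had a peak. The next mock peak, with its summit 10494 and 10531 bp upstream, had 56 and 55 fragments. Both mock libraries had further peaks 22247 and 22237 bp and 27351 and 27344 bp upstream. None of these was called in BMH-21, where the next peak lay about 33 kb upstream. That peak was common to all 4 libraries, with 87, 76, 56 and 53 fragments.

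**Figure D3:**
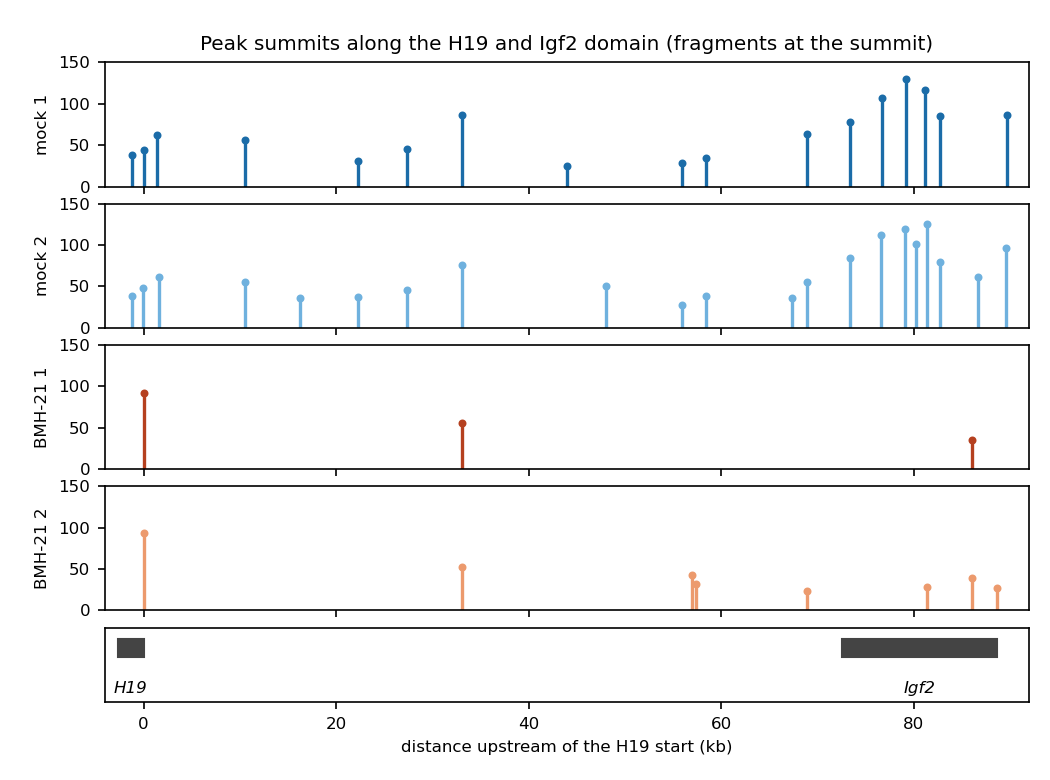
Peak summits from H19 to Igf2, with the distance upstream of the H19 start in kb on the horizontal axis and the fragments at each summit on the vertical axis, 1 panel for each library, and the genes as boxes at the bottom. The summit at the H19 start is higher in the BMH-21 panels (92 and 93 against 44 and 48), and the group of summits over Igf2 is thinner and lower there.

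In the Meg3 cluster the coding gene at its edge kept its peaks. Dlk1, a Notch-like membrane protein, had 2 peaks in each library and the same 2 regions throughout, with the highest summit at 103 and 97 fragments in mock against 77 and 91 in BMH-21 (ratio 0.840). Meg3, a maternally expressed non-coding RNA, had 4 and 7 peaks in mock against 2 and 3 in BMH-21, and its highest summit went from 95 and 91 to 49 and 40 fragments (ratio 0.478). The mock summit lay at 8011 and 8009 bp into the gene, where BMH-21 had none, while a peak near 2000 bp was common to all 4, with 47, 65, 49 and 40 fragments. Between Dlk1 and Meg3, where the germline control region of the cluster lies, 5 and 5 mock peaks compared with 2 and 1, and 1 region was held by all 4 libraries. That peak stood 12629, 12675, 12270 and 12255 bp upstream of Meg3, with 40, 43, 36 and 38 fragments.

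Peaks in the paternally methylated clusters numbered 19 and 25 in mock against 6 and 9 in BMH-21 (22 ± 4.24 and 7.5 ± 2.12, ratio 0.341), and in the maternally methylated clusters 87 and 90 against 52 and 56 (88.5 ± 2.12 and 54 ± 2.83, ratio 0.610). The share of member peaks that lay in paternally methylated clusters was 17.92% and 21.74% in mock against 10.34% and 13.85% in BMH-21, without overlap of the groups (exact permutation p = 0.33, two-sided, the smallest possible). By gene, 1 of 5 paternally methylated (Rtl1, 20%) and 4 of 29 maternally methylated members (13.8%) were mock-only, a difference of 6.21 percentage points that turned to -14.8 with gene ends alone and to -11.8 with each cluster counted once. By region, 14 of 19 held by both mock libraries were mock-only in the paternally methylated clusters (73.7%, interval 48.8 to 90.9%) and 36 of 71 in the others (50.7%, 38.6 to 62.8%). That difference of 23.0 percentage points ranged from 18 to 38.7 over the alternatives, and the 2 intervals overlap. Only 2 clusters are paternally methylated, so no test over clusters was made.

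Over all imprinted genes 50 of 90 regions were mock-only (55.6%, interval 44.7 to 66.0%), against 60.0% of autosomal regions in or within 1 kb of a gene. With lists of equal length the share was 41.0%, against 37.0%. At the ends of any annotated gene it was 18 of 46 (39.1%, background 34%) and inside genes 32 of 44 (72.7%, background 76.5%). Regions at gene ends were mock-only in 11 of 14 cases in the paternally methylated clusters (78.6%, 49.2 to 95.3%) and in 7 of 32 in the maternally methylated (21.9%, 9.28 to 40%), intervals that do not overlap. Regions of 1 locus share their library and their surroundings and are not replicates, and the 14 come from 2 loci, where most lay at the ends of other annotated genes: at the members' own ends the counts were 3 of 5 and 7 of 30. Inside genes the shares were 3 of 5 and 29 of 39. BMH-21-only regions were 11 of the 50 held by both BMH-21 libraries (22%, 11.5 to 36%) against 15.1%. All 11 lay inside genes (11 of 25, 44.0%, against 28.3%) and 0 of 25 at gene ends (against 7.49%): 3 in Usp29, 2 each in Kcnq1ot1 and Snrpn, and 1 each in Igf2, Meg3, Peg3 and Airn.

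**Figure D4:**
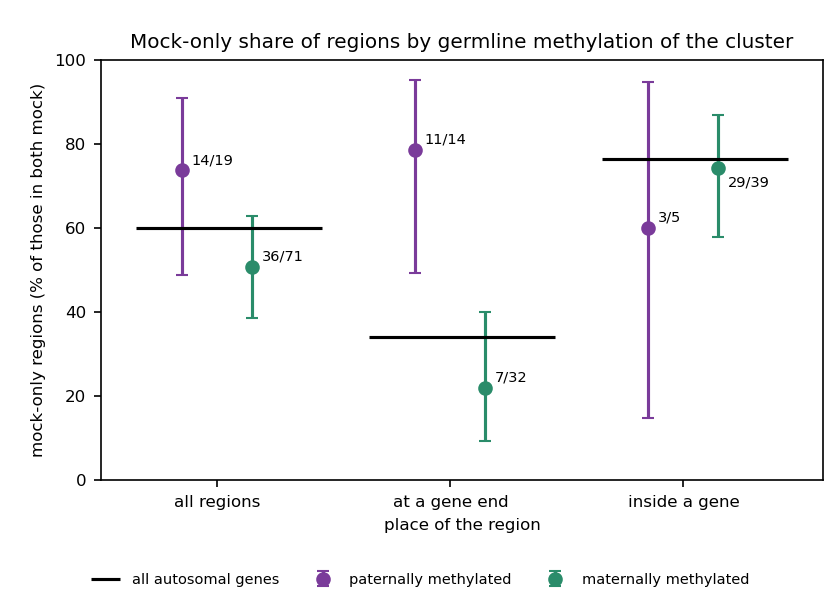
Share of regions held by both mock libraries that neither BMH-21 library held, in percent on the vertical axis, for paternally and maternally methylated clusters, over all regions and by place; points are shares with exact 95% binomial intervals, the counts stand beside them, and black lines are the shares over all autosomal genes. At gene ends the paternally methylated clusters lie at 11 of 14 and the others at 7 of 32, and inside genes both intervals include the line.

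Among the maternally methylated clusters, the non-coding RNAs Kcnq1ot1, Airn, Peg13 and Nespas had peaks in all 4 libraries. Kcnq1ot1, the antisense RNA of its cluster, had a highest summit of 82 and 86 fragments in mock against 164 and 169 in BMH-21 (84.0 ± 2.83 and 166 ± 3.54, ratio 1.98). The highest mock summit lay 1103 and 1118 bp inside the gene, where BMH-21 had 107 and 101 fragments, and the highest BMH-21 summit lay at -34 and -30 bp, at the start, where a peak of mock 1 had 47. Cdkn1c, a cell cycle inhibitor of the same cluster, overlapped between groups (147, 157, 159 and 152 fragments). Peg13, a non-coding RNA, went from 80 and 87 to 117 and 121 fragments, while Kcnk9, a potassium channel gene in its cluster, went from 140 and 125 to 47 and 43 at its highest summit. Within the broad mock peak that held this summit, BMH-21 had a peak of 23 and 24 fragments, which did not cover the mock summit. At Nespas, which is read antisense to Gnas, the direction differed between peaks. The peak at the Nespas start went from 118 and 118 to 175 and 168 fragments, and one nearer the first Gnas start from 117 and 122 to 42 and 42. Gnas codes for the G protein subunit that couples receptors to cyclic AMP. The highest mock summit in Gnas, 45614 and 45619 bp into the gene, held 155 and 161 fragments. In the same region BMH-21 had 90 and 82. A broad mock peak with summits 15098 and 15311 bp in, of 151 and 139 fragments, had no counterpart in BMH-21. The highest BMH-21 summit in Gnas was the Nespas start peak, so the ratio of highest summits was 1.09.

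Airn, the RNA that silences Igf2r, kept its start peak with 102, 105, 92 and 108 fragments, which overlapped between groups. The promoter of Igf2r, the receptor that clears IGF2, gave the highest summit of both genes, because it lies inside Airn, and went from 129 and 150 to 117 and 108. In the Peg3 cluster the start shared by Peg3, a zinc finger gene, and Usp29, a deubiquitinase gene, went from 94 and 102 to 139 and 134 fragments. Zim1, a zinc finger gene beside them, went from 76 and 67 to 102 and 101. Mcts2, a retrogene in an intron of H13, went from 100 and 110 to 148 and 145, whereas the H13 start itself had 143, 143, 139 and 130. H13 codes for signal peptide peptidase. Impact, a regulator of translation on chromosome 18, had 1 peak in each library, inside the gene, with 77, 78, 87 and 86 fragments.

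The other members had a highest summit that was lower in both BMH-21 than in either mock library, though not for Grb10 once divided by the genome-wide background. Peg10, a retrotransposon-derived gene of the placenta, and Sgce, which codes for a sarcoglycan, share a start peak that went from 104 and 99 to 43 and 47 fragments, while a peak about 2 kb into Peg10 had 88, 92, 74 and 71. Zrsr1, a retrogene for a splicing factor, went from 146 and 141 to 75 and 72. Nnat, a membrane protein gene of the nervous system, had a start peak of 51 and 49 fragments in mock against 35 and 37 in BMH-21, and a higher one near its other end, of 74 and 74, in mock alone. Plagl1, a zinc finger growth regulator, went from 65 and 74 to 45 and 47. Each mock list had 3 further peaks within it that were not called in BMH-21, but only 1 of these regions was held by both mock libraries. Inpp5f, a phosphatase gene, had 103 and 118 against 87 and 91 at its highest summit, and Grb10, an adaptor that dampens insulin signalling, 131 and 138 against 126 and 124. In Grb10 these were different peaks: the main start went from 131 and 138 to 38 and 52 fragments, and a peak 11568, 11565, 11514 and 11513 bp inside had 130, 126, 126 and 124. Both peaks of Inpp5f were held by all 4 libraries. The Inpp5f start went from 103 and 118 to 73 and 84 fragments, and the peak deep inside the gene from 71 and 77 to 87 and 91.

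Of the 27 genes with a peak in all 4 libraries, the highest summit was lower in both BMH-21 than in either mock library in 15 (55.6%, against 52.3% of genes with a peak in all 4), higher in 11 (40.7%, against 29.1%) and overlapping in 1. Divided by the genome-wide background of each list, the numbers were 14 (background 45.4%) and 11 (background 30.2%), and Grb10 joined Cdkn1c among the overlapping. The highest summit of a gene need not be the same peak in each library, and genes that lost all peaks in a BMH-21 library are not among the 27. The median ratio was 0.840 over the 27 and 0.908 over all such genes. Both the count and the ratios count peaks shared by 2 members more than once: 6 pairs, with 12 members, have windows that meet (Peg3 with Usp29, Airn with Igf2r, Gnas with Nespas, Peg10 with Sgce, Mcts2 with H13, and Meg3 with Rtl1).

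**Figure D5:**
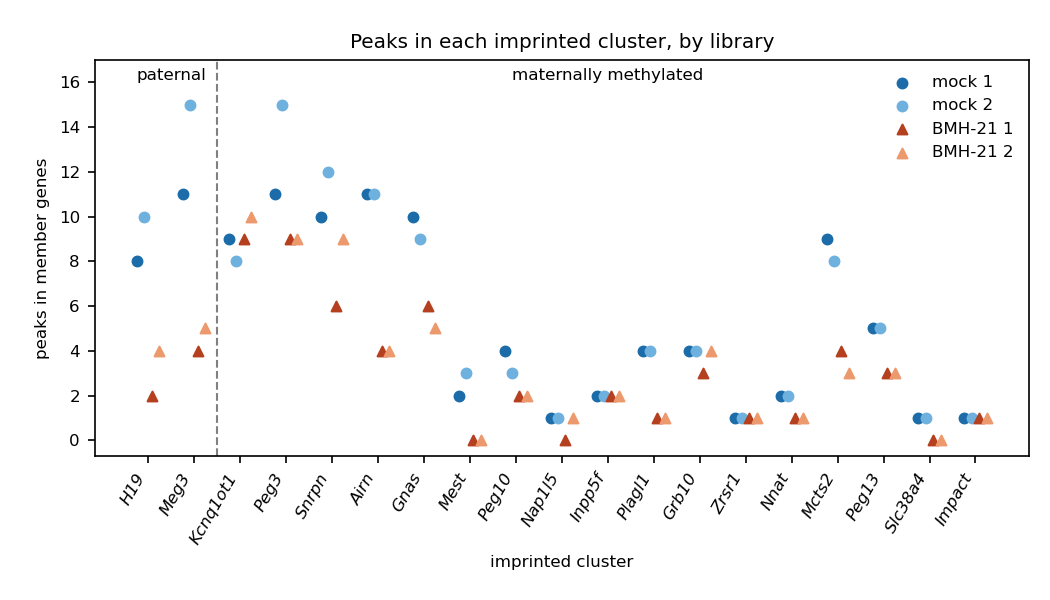
Number of peaks in the member genes of each of the 19 clusters (horizontal axis, paternally methylated clusters left of the dashed line) in the 2 mock (circles) and 2 BMH-21 libraries (triangles). Both triangles lie under both circles in 13 clusters, and Mest and Slc38a4 have no peak in BMH-21. The whole lists were also shorter in BMH-21 (ratio 0.470).

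By cluster, 13 of 19 had fewer peaks in both BMH-21 than in either mock library, 0 had more and 6 overlapped (Kcnq1ot1, Nap1l5, Inpp5f, Grb10, Zrsr1 and Impact). A peak in all 4 libraries was found in 16 clusters, and Mest and Slc38a4 were mock-only. No share over groups of other genes was counted beside these cluster counts, and the whole lists were shorter in BMH-21 (ratio 0.470). The Kcnq1ot1 cluster had 9, 8, 9 and 10 peaks, and the Airn cluster 11, 11, 4 and 4. Of single genes, 20 of 34 had fewer peaks (58.8%, against 55.6% of genes that had peaks in both mock libraries) and 1, Cdkn1c, had more (2.94%, against 2.02%), where 1 broad mock peak was called as 2 in BMH-21.

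A wider list of 48 other imprinted genes and one of 31 genes that set, protect or erase imprints were counted in the same way. Of the former 46 were matched to genes other than the members (Nesp, a transcript of Gnas, was left out), and 45 had peaks in each mock library. Of these 9 were mock-only (20%, against 17.7% of all genes and 8.81% of protein-coding genes) and 36 had a peak in all 4, and 0 were BMH-21-only. The 4 with the strongest mock peaks among the 9 were Calcr, the calcitonin receptor, at percentiles 98.4 and 99.0, Qpct, a glutaminyl cyclase, Klf14, a zinc finger factor without introns, and Tfpi2, a protease inhibitor. Rasgrf1, whose control region is also methylated in the paternal germ line, had 10 and 8 peaks in mock against 2 and 1 in BMH-21. Of the genes that act on imprints 30 of 31 had peaks in each mock library, and 1 was mock-only (3.33%, against the same 17.7% and 8.81%), Dnmt3c, a DNA methyltransferase of the male germ line, listed as Dnmt3b-ps1. Ctcf, its germ cell paralogue Ctcfl, Dnmt3l, Zfp57 and its partner Trim28 had peaks in all 4 libraries. Zfp57 had 1 peak in each, at percentiles 99.6, 99.5, 95.9 and 95.2.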

How the data were processed

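The labels describe ATAC-seq on 4 libraries, 2 for each treatment, and each had its own narrowPeak list. The extract protocol names a tagmentation kit but the design text an RNA library kit, and the values were read as ATAC-seq. The tools listed in the submitters' processing notes are MACS2 2.1.0, Bowtie2, fastp, deepTools and bedtools, without roles. The sources used here do not give peak parameters, duplicate removal or any shift of cut sites. The notes name mm39 and mm10, and coordinates were taken as mm10 (GRCm38) because peaks on chromosome 1 reach 195371813, past the last base of chromosome 1 in mm39. Positions are 1-based. The deposited fold is a ratio, summit pileup over local background within 1 library. Its significance is deposited as −log10 p and −log10 q, and the deposited score is derived from the latter. None is normalised between libraries, and an absent peak is one under the authors' threshold, not closed chromatin.

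Summit fragments and local background were recovered from the deposited fold and −log10 p by the Poisson relation of the caller (largest error 0.0008). They are not scaled for depth. Counts of genes and regions used Python 3.11.15, numpy 2.4.6, pandas 2.3.3 and scipy 1.17.1, and were tested on simulated lists. Clopper-Pearson intervals cover counting error only. Amplified fragments carry no molecular identifiers. Alternatives were windows of 500 bp and 2.5 kb, gene ends only, a −log10 q of at least 5, lists of equal length, 50% overlap, 100 bp on either side of summits, clusters counted once, pairing, and each library left out. Others (scaling of summits, start windows) were added after the data were seen. The members and gene lists were chosen with earlier results of these data known. Every listed member is described. From the wider lists, up to 4 mock-only and 4 BMH-21-only genes were named by the within-list percentile of their strongest peak, with Ctcf, Ctcfl, Dnmt3l, Zfp57, Trim28 and Rasgrf1 in any case. The annotation gives no exons, and 9 members had no start in the table used.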

Additional observations from a re-analysis of the deposited data

How the results depend on the processing

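Of 104 values from alternatives to 10 results, 5 moved and 99 were counted as unmoved. Differences in genes or peaks counted as unmoved if they kept their sign, and counts if they stayed within a fixed ratio. Shares and differences of shares did so inside the counting interval of the reported value. The replicate block was counted as unmoved without a check. The 99 thus include differences of -9 peaks (lists of equal length) and -8 peaks (gene ends only) against -49 as reported. Among these 99 the difference between paternally and maternally methylated clusters in the share of mock-only members, 6.21 points as reported, changed sign, to -14.8 with gene ends only and -11.8 with each cluster counted once. The mock-only members numbered 2 with each cluster counted once and 3 over start windows (Mest, Ndn and Nap1l5). With lists of equal length 1 gene, H19, was BMH-21-only. The mock-only share of regions was 41.0% with lists of equal length and 28.6% at gene ends only. The cause was not tested, apart from the fewer peaks and shorter windows that these settings count by construction. Leaving out each library moved the difference in peaks between -53.5 and -44.5, and the difference in genes stayed at -6. With the replicate block the differences were -6 genes and -49 peaks, with an exact permutation p = 0.50, the smallest that 2 pairs allow. The labels give no pairing, and across 19929 genes the deviations of same-numbered libraries correlated at -0.0136. Read totals are not given. The lowest local background, which scales with the reads, was 4.54 and 4.31 fragments in mock and 4.46 and 4.11 in BMH-21. How depth limits the peaks called in each library was not tested.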
